A study of Mus musculus with 9 samples.

Results

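The ion channel and connexin genes of mouse ventricle were compared between hearts with raised and with lowered phosphoinositide 3-kinase (PI3K) signalling. Members were all genes whose array symbol names a potassium (Kcn), sodium (Scn), calcium (Cacn), pacemaker (Hcn) or chloride (Clcn) channel subunit, a connexin (Gja, Gjb, Gjc, Gjd), a subunit of the Na+/K+ pump (Atp1a, Atp1b) or a sulfonylurea receptor (Abcc8, Abcc9). This rule found 84 genes on 110 probe sets, out of 8252 genes with a single symbol. A probe set is the group of short probes that measures one transcript, and each gene was read from its brightest probe set, taken by its mean over the 9 arrays. RNA came from ventricle only, with 1 mouse per array and 3 mice per group. In caPI3K mice a transgene supplied constitutively active PI3K, and the labels put their hearts 20% above littermate size. In dnPI3K mice the transgene was a dominant negative PI3K, and hearts were 17% below littermate size. NTG mice had no transgene. The promoter of the transgenes and the age, sex and strain of the mice are not given in the sources used here.

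Each heartbeat is a sequence of currents. Sodium and then calcium channels depolarise the muscle cell, several potassium channels repolarise it, inward rectifiers hold its resting potential, and connexins carry the current from cell to cell. Enlarged and failing hearts are known for long action potentials, for which lower transient outward and delayed rectifier potassium currents are a textbook cause, and PI3K is known to act on cardiac channels both at the membrane and through transcription.

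Values are normalized intensities in arbitrary units, given in the order of the animals within a group, and fold changes are on a log2 scale with values under a floor of 35.3 raised to it. Because probe sets differ in brightness for technical reasons, no member's level was ranked against another member's. The background rule and the sums of marker levels do set different genes side by side, and this limit applies to them. The 3 dnPI3K arrays stood apart from the other 6 in array controls. The geometric mean of 9 bacterial and phage spike-in probe sets was 1567 to 1984 on dnPI3K arrays, 2607 to 3519 on NTG arrays and 2781 to 3386 on caPI3K arrays, and a control for the sample's own 18S ribosomal RNA read 3303 to 8097 against 462 to 671 and 475 to 540.4. The part of these differences in the results was not tested. The dnPI3K animals also have a number series of their own, so for comparisons with dnPI3K the animal series and the group cannot be told apart. Animals of the other groups share the number series 2800 (2 per group) and 3100 (1 per group). Markers of heart muscle cells were present: all 8 measured cardiomyocyte genes were above background on every array, with a summed level of 222103 to 233655 in caPI3K, 217649 to 233046 in dnPI3K and 222740 to 244084 in NTG. This list was not drawn to tell ventricle from atrium, and atrial markers, which varied widely between arrays, are given below.

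Whether a gene was above background was judged against genes of other tissues. The background level was the 90th percentile (267.7) of the mean intensities of 60 measured genes known from retina, lens, testis, oocyte, pituitary, pancreas and similar sources, whose median was 68.1. A member was called above background when its brightest probe set exceeded that level on all 9 arrays. By this rule 17 of the 84 members (20.2%) were above background in ventricle, 14 were above it on some arrays and 53 on none. Of the 60 genes of other tissues themselves, 5 (8.33%) met the same rule. The level was drawn from these genes, so the choice of percentile limited that share in advance. It does not measure how often the rule errs. The 17 were the calcium channel pore Cacna1c and its beta subunit Cacnb2; the potassium channels Kcna5, Kcnh2, Kcnq1, Kcnk3, Kcnj8 and Kcnj11 with the sulfonylurea receptor Abcc9; the pacemaker channels Hcn2 and Hcn3; connexin 43 (Gja1); the chloride channel family members Clcn3, Clcn4 and Clcn7; and the pump subunits Atp1b1 and Atp1b3.

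The share above background differed in number between the current types. It was 3 of 4 genes of the ATP-sensitive potassium current, 2 of 2 of the pacemaker current, 2 of 3 of the Na+/K+ pump, 3 of 6 chloride channel genes, 3 of 17 genes of the delayed rectifier and steady-state currents, 2 of 12 calcium channel genes, 1 of 5 genes of 2-pore channels and 1 of 11 connexins. None of the 6 sodium channel genes, the 5 genes of the inward rectifier, the 4 of the transient outward current, the 4 of the acetylcholine-activated current, the 4 of calcium-activated and sodium-activated channels or Kcnu1 met the rule. The 14 members above background on some arrays were Abcc8 (8 arrays), Kcnk7 (7), Cacna2d1 (6), Kcnn1 (5), Cacna1b (4), Kcnj4 and Kcnn4 (3 each), Kcnk1, Kcnk4 and Kcnj5 (2 each), and Kcnd3, Cacna1s, Gja5 and Gjb5 (1 each).

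**Figure D1:**
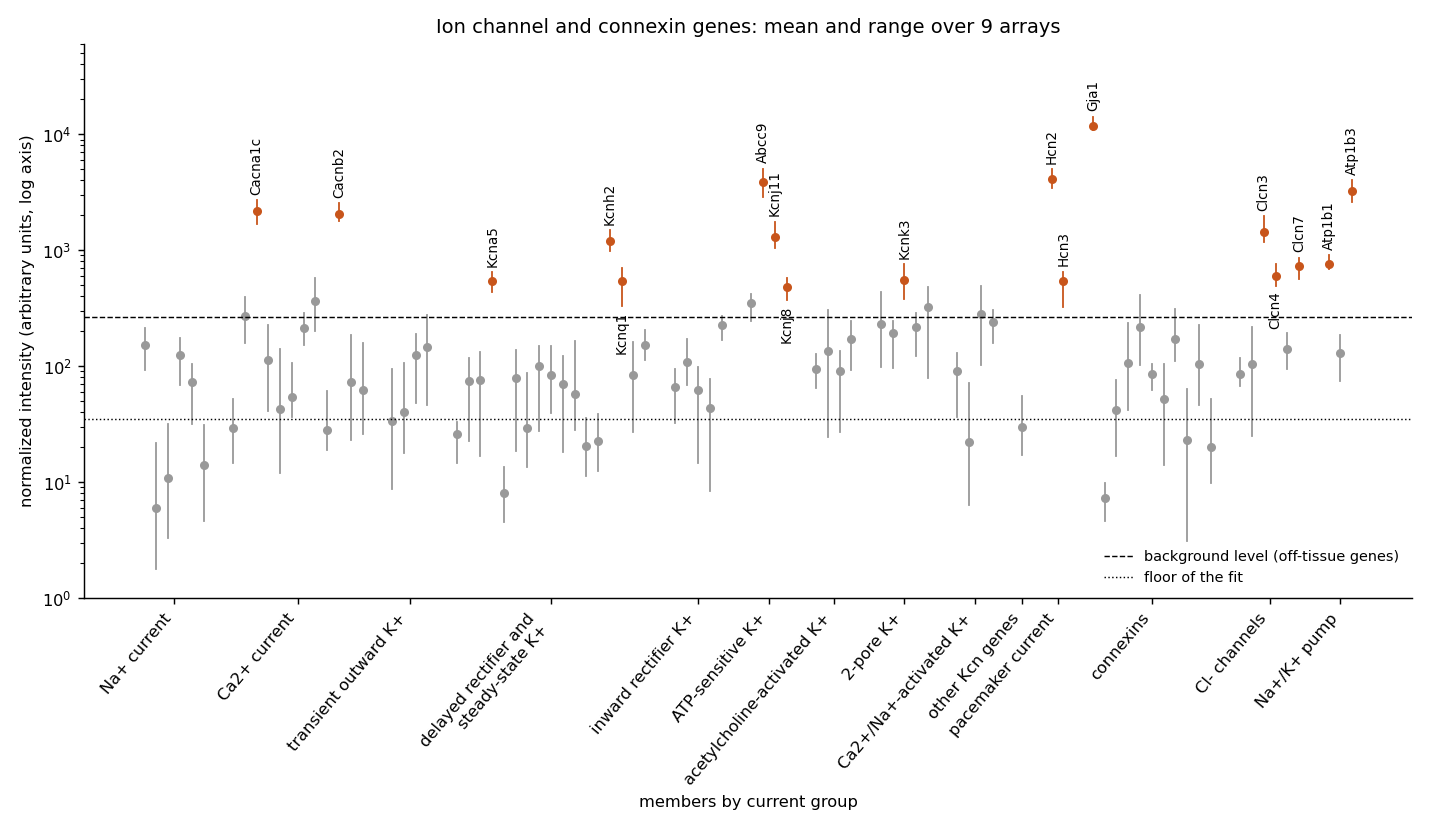
Normalized intensity (vertical log axis, arbitrary units) of the 84 members by current group: points are means and lines the range over 9 arrays. Orange marks the 17 members above the dashed background level (267.7) on all 9 arrays, grey the others, and the dotted line is the floor (35.3).

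Levels depend on how background is drawn. A level is a property of a probe set, and a gene under background may be expressed below what its probes resolve. The inward rectifier subunit Kcnj2 is an example: this pore of the ventricular resting current read 76.9, 17.2 and 48.1 on NTG arrays, 8.37, 72.5 and 46.5 on caPI3K arrays and 37.5, 47.7 and 39.2 on dnPI3K arrays. All 9 values were under background and they overlapped between groups. In all, 16 of the 84 members were too dim to be tested, and 6 of these (Gja10, Kcna1, Kcna6, Scn1a, Scn3a and Scn9a) lay under the floor on every array.

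Group differences were tested with limma across the whole table of 10645 probe sets, with p-values adjusted over all of them, and 68 members entered. The comparisons share their arrays: the NTG arrays serve both transgenic groups. Between caPI3K and NTG, 0 of 68 members passed the threshold of 0.05, against 0.107% of the 7478 genes tested. At an unadjusted p under 0.05 there were 4 members, against 7.21% of all genes, and in 6 members the 3 arrays of one group lay beyond those of the other, against 12.6% of all genes. Between dnPI3K and NTG the counts were 0 members past the threshold (2.22% of all genes), 6 at the unadjusted p (14.9%) and 9 with arrays apart (19.3%). Between caPI3K and dnPI3K, 1 member passed (3.46% of all genes), 12 had an unadjusted p under 0.05 (17.1%) and 13 had arrays apart (24.5%). As shares of the 68 tested members these counts were 0%, 5.88% and 8.82% in the first comparison, 0%, 8.82% and 13.2% in the second and 1.47%, 17.6% and 19.1% in the third, so they lay near or below the shares of all genes. The median log2 fold change of the members was -0.048, -0.022 and 0.021 in the 3 comparisons in that order, and that of all genes was 0, 0.0073 and 0.0001.

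Cacna2d1 was the member that passed. It encodes the alpha-2-delta-1 subunit of voltage-gated calcium channels, an accessory protein that brings the pore to the membrane and is the target of gabapentin. It read 413, 578 and 480.5 on caPI3K arrays, 366, 514 and 303 on NTG arrays and 203, 242 and 211 on dnPI3K arrays. All 6 caPI3K and NTG values were above background and all 3 dnPI3K values under it, and the dnPI3K arrays overlapped with neither of the other groups. The level in caPI3K was 2.23-fold that in dnPI3K (log2 fold change 1.16 ± 0.223 (SE), 95% interval 0.66 to 1.65, adjusted p = 0.0191). Against NTG the log2 fold change was -0.82 ± 0.223 in dnPI3K (adjusted p = 0.0984) and 0.33 ± 0.223 in caPI3K (adjusted p = 0.816), and neither passed. The call between caPI3K and dnPI3K rested on every array of these groups but 1. The adjusted p was 0.0966 without caPI3K replicate 2, 0.0601 without caPI3K replicate 3, and 0.0594, 0.0567 and 0.0653 without dnPI3K replicate 1, 2 or 3, and it was 0.0557 when dim probe sets were kept in the test. Over all alternatives the log2 fold change lay between 1.03 and 1.27.

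The 250 bases upstream of the start of Cacna2d1 are shown with those of Kcnd2 and Kcnd3, the pores of the fast transient outward current, whose caPI3K and dnPI3K arrays also did not overlap. They are from RefSeq on build GRCm38.p6 and all lie on the plus strand, at chr5:15934441-15934690, chr6:21215096-21215345 and chr3:105451640-105451889. Capitals mark the GC box, GGGCGG on either strand, the motif bound by Sp1.
Cacna2d1: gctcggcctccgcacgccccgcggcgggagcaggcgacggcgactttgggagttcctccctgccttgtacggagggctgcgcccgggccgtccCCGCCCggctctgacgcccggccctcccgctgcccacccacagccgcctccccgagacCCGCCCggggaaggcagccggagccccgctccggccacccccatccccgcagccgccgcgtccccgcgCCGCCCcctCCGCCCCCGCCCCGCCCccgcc
Kcnd2: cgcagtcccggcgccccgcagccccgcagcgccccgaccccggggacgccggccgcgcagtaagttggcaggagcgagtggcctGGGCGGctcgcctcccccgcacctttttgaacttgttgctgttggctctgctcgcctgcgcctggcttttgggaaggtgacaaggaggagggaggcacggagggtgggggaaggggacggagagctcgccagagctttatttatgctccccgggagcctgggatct
Kcnd3: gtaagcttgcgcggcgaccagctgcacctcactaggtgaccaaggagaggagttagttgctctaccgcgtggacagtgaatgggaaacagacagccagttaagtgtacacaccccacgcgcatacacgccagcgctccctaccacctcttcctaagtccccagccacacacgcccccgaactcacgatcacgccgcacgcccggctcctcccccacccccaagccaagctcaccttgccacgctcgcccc
Cacna2d1 held 6 GC boxes in this window, Kcnd2 held 1 and Kcnd3 held 0. The GC content of the windows was 82.4%, 68.8% and 62.8%. Among the 66 members with an entry in the promoter table, 35 (53.0%) held a GC box, against 32.9% of 27025 genes, and their median GC content was 61.6% against 52% of all entries. Of other motifs, read on both strands, TATAAA was in 7.58% of members and 13.0% of all, the E-box CANNTG in 71.2% and 66.0%, the M-CAT motif CATTCC in 21.2% and 12.6%, the GATA motif AGATAA in 3.03% and 10.3%, and the cyclic AMP response motif TGACG in 31.8% and 17.9%. GGGCGG occurs more often in sequence of high GC content, and a match is a description of letters, not a site of binding.

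Of the other calcium channel genes, Cacna1c is the pore of the L-type channel that triggers contraction. It read 1896, 2098 and 2438 on NTG arrays, 1666, 1986 and 2044 on caPI3K arrays and 2700, 2599 and 2048 on dnPI3K arrays. Every dnPI3K value was above every caPI3K value, by a small margin at the closest pair, and the NTG values overlapped with both. The difference, caPI3K against dnPI3K, was -0.36 ± 0.136 and did not pass (adjusted p = 0.201). The beta subunit Cacnb2, which chaperones the pore, overlapped between all groups (2006 ± 202 in NTG, 2233 ± 257 in caPI3K and 1968 ± 157 in dnPI3K, mean ± SD, n = 3 each), with log2 fold changes of 0.15, -0.025 and 0.18 in the order of the comparisons above. The skeletal muscle pore Cacna1s was above background on 1 array. It read 152, 182 and 194 in caPI3K and 286, 258 and 220.2 in dnPI3K, which did not overlap, and the difference of -0.53 ± 0.223 did not pass (adjusted p = 0.258). The T-type pore Cacna1g was under background on all arrays, at most 139 units. Over the 10 calcium channel genes tested, 7 were above 0 in caPI3K against dnPI3K, with a median of 0.34 and a range of -0.53 to 1.16.

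Genes of the transient outward current, the fast first phase of repolarisation in mouse ventricle, were under background, but for Kcnd3 on 1 array. Kcnd2 (Kv4.2) read 128, 80.4 and 159 on NTG arrays, 189, 161 and 179.9 on caPI3K arrays and 48.5, 80.5 and 97.8 on dnPI3K arrays. All 9 values were under background. The caPI3K arrays lay above all others, and the dnPI3K arrays overlapped with NTG. The log2 fold change in caPI3K against dnPI3K was 1.28 ± 0.351 (adjusted p = 0.0862), and a second Kcnd2 probe set gave 0.30. Kcnd3 (Kv4.3) read 246, 178 and 46.4 in NTG, 191, 278 and 153 in caPI3K and 66.0, 65.3 and 79.6 in dnPI3K. The lowest NTG array was below every dnPI3K array, while caPI3K and dnPI3K did not overlap, and the difference was 1.52 ± 0.534 (adjusted p = 0.171). Without NTG replicate 3, the low array, Kcnd3 passed in both comparisons with dnPI3K. The log2 fold change was then -1.58 against NTG and 1.52 for caPI3K against dnPI3K. That fit called 174 and 328 of 7425 genes in these comparisons, where the fit of all arrays called 166 and 259 of 7478. With each array left out in turn, Kcnd3 passed in 1 of 9 fits in each of these comparisons. Kcna4, the pore of the slow transient current, lay at 8.74 to 95.4 and overlapped between all groups. Kcnd1 was too dim to be tested.

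The delayed rectifiers complete repolarisation. Kcna5 (Kv1.5), which carries the ultrarapid current and is prominent in the mouse, read 544, 645 and 559 on NTG arrays, 459, 442 and 439.6 on caPI3K arrays and 571, 648 and 524 on dnPI3K arrays. The caPI3K arrays lay together below all 6 others, and NTG and dnPI3K overlapped. Its log2 fold change was -0.38 ± 0.137 in caPI3K against NTG (adjusted p = 0.594) and -0.37 ± 0.137 in caPI3K against dnPI3K (adjusted p = 0.191), and it did not pass in either. In animals of the 2800 and 3100 series it was -0.40 and -0.35 against NTG. Kcnh2 (ERG, the rapid component) read 1177 ± 99.0 in NTG, 1095 ± 91.5 in caPI3K and 1319 ± 226 in dnPI3K, and Kcnq1 (the pore of the slow component) read 586 ± 108 in NTG, 560.0 ± 114 in caPI3K and 473 ± 128 in dnPI3K. Both overlapped between all groups. Kcne1, the slow component's accessory subunit, was under background on all arrays (28.0 to 164). Of the 12 genes of this type that were tested, 8 were below 0 in caPI3K against dnPI3K and 7 in caPI3K against NTG, and 0 passed in any comparison.

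**Figure D2:**
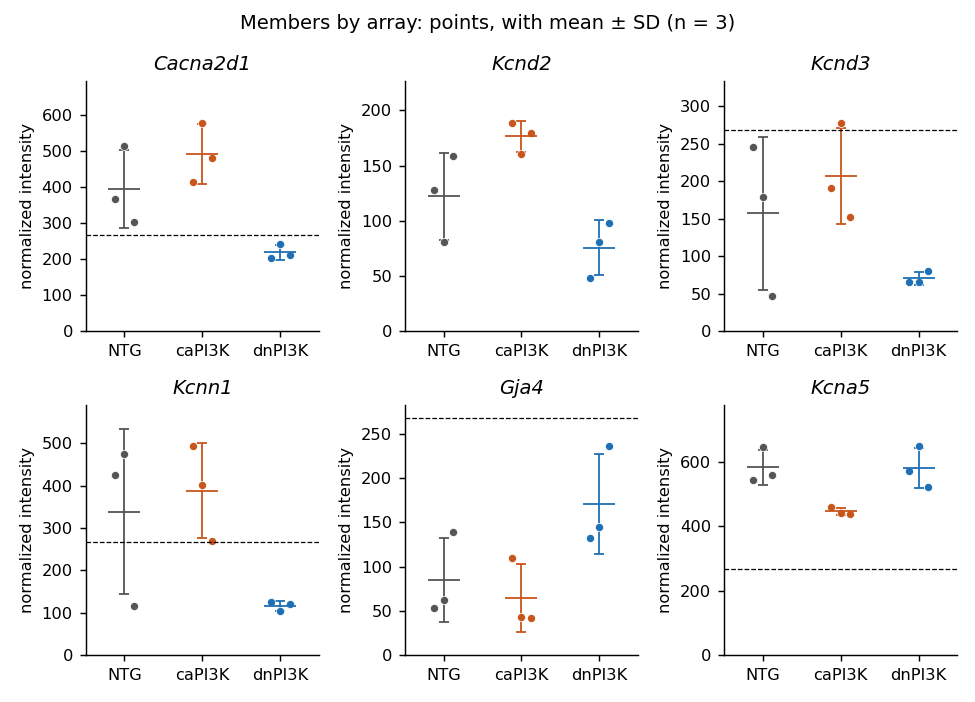
Normalized intensity (vertical axis, arbitrary units) of 6 members on each array by group: points are animals, bars the mean ± SD (n = 3) and the dashed line is background. Cacna2d1, Kcnd2, Kcnd3 and Kcnn1 were higher on all caPI3K than on all dnPI3K arrays, Gja4 and Kcna5 lower, and of these only Cacna2d1 passed the threshold.

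The ATP-sensitive potassium channel, which opens when the cell's energy falls, is built from a pore (Kcnj11 or Kcnj8) and a sulfonylurea receptor (Abcc9 or Abcc8). Abcc9 (SUR2), the receptor of ventricular muscle and of vessels, read 3996, 3380 and 4340 on NTG arrays, 2866, 3364 and 3717 on caPI3K arrays and 3860, 4611 and 5026 on dnPI3K arrays. Here caPI3K lay below dnPI3K without overlap, and NTG overlapped with both. The difference was -0.44 ± 0.134 (adjusted p = 0.116). Abcc8 (SUR1) read 378, 387 and 415 in NTG, 307, 244 and 318 in caPI3K and 398, 344 and 349.8 in dnPI3K. The caPI3K values were the lowest 3 of the 9, and the log2 fold change against NTG was -0.45 ± 0.171 (adjusted p = 0.649), with -0.48 and -0.38 in the 2800 and 3100 animal series. A second Abcc8 probe set, dim on all arrays, gave 0.72. The pores overlapped between all groups: Kcnj11 (Kir6.2) read 1207 ± 119 in NTG, 1201 ± 220.4 in caPI3K and 1503 ± 326 in dnPI3K, and Kcnj8 (Kir6.1, the pore of vascular muscle) read 493 ± 44.6 in NTG, 486 ± 81.5 in caPI3K and 468 ± 101 in dnPI3K. All 4 genes were at or below 0 in caPI3K against NTG, from -0.45 to -0.018, and 0 passed.

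Vascular cells share this channel. The smooth muscle and pericyte list, of which 5 of 8 genes were above background on all arrays and Cnn1 on none, summed to 3575 to 4136 in caPI3K, 4686 to 5072 in NTG and 5584 to 6548 in dnPI3K, without overlap between groups. Acta2 made up most of the step from NTG to dnPI3K (means 1272 and 2555) and was the one gene of the list that passed there (0.997, adjusted p = 0.0176), while Rgs5 (-0.40), Mylk (-0.21) and Pdgfrb (0.10) overlapped. In caPI3K against dnPI3K Acta2 and Myh11 passed, both lower (-1.56 and -1.20). The part of these markers in the values of Abcc9 and Kcnj8 was not tested. In whole ventricle, fewer cells of a type and less RNA per cell cannot be told apart.

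No gene of the inward rectifier or the acetylcholine-activated channel was above background on all arrays, and Kcnj4 and Kcnj5 were so on 3 and 2. Kcnj12, a second pore of the resting current, read 68.4 to 170.5 and overlapped between all groups, as Kcnj2 did. Kcnj15 was under background throughout. It read 55.1, 43.9 and 36.5 in NTG and 63.3, 95.4 and 98.1 in caPI3K, which did not overlap, and its log2 fold change of 0.92 ± 0.361 did not pass (adjusted p = 0.665). Kcnj3 and Kcnj5, the pores opened by the vagal transmitter, read 64.6 to 127 and 24.7 to 306. Kcnj5 varied nearly as widely within groups as over all arrays, at 24.7, 132 and 287 in caPI3K and 73.3, 121 and 306 in dnPI3K. None of the 9 genes of these currents passed in any comparison.

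Among 2-pore channels, Kcnk3 (TASK-1), a background leak channel, was above background and overlapped between all groups (568 ± 97.2 in NTG, 552 ± 194 in caPI3K and 541 ± 51.8 in dnPI3K). Kcnk2 (TREK-1), opened by stretch, read 175, 95.9 and 171 on NTG arrays, 226, 213 and 240.4 on caPI3K arrays and 200.1, 246 and 155 on dnPI3K arrays. All were under background. The caPI3K values lay above the NTG values, with a log2 fold change of 0.67 ± 0.295 (adjusted p = 0.707). Kcnk7, a silent subunit, read 384, 362 and 305 in NTG, 485, 321 and 407 in caPI3K and 301, 79.7 and 241 in dnPI3K. The dnPI3K arrays were the lowest 3, with a wide spread, and neither difference passed (-0.96 ± 0.415 against NTG, adjusted p = 0.318; 1.15 ± 0.415 for caPI3K against dnPI3K, adjusted p = 0.183). Kcnk1 lay lower on all dnPI3K than on all NTG arrays (-0.91 ± 0.416, adjusted p = 0.343) and Kcnk4 higher (0.36 ± 0.293, adjusted p = 0.634).

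Kcnn1 (SK1), a pore of the small-conductance calcium-activated potassium channel, had the highest log2 fold change of the 68 members tested between caPI3K and dnPI3K. It read 425, 476 and 116 on NTG arrays, 493, 401 and 269 on caPI3K arrays and 125, 103 and 119 on dnPI3K arrays. The 3 dnPI3K arrays and NTG replicate 3 lay together at 103 to 125, and the other 5 arrays lay above background. The difference was 1.70 ± 0.469 for caPI3K against dnPI3K (adjusted p = 0.0865) and -1.31 ± 0.469 for dnPI3K against NTG (adjusted p = 0.217), and neither passed. With NTG replicate 3 left out, the lowest of the 3 NTG arrays, both passed, at 1.71 and -1.97. That fit called 328 and 174 of 7425 genes in these comparisons. With each array left out in turn, Kcnn1 passed in 1 of 9 fits in each of these comparisons. Kcnma1, the pore of the large-conductance channel, was under background on all arrays.

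NTG replicate 3 was also the NTG array of lowest atrial myosin light chains. Myl4 read 6896, 3669 and 223 in NTG, 499, 421 and 4304 in caPI3K and 27.9, 49.7 and 36.1 in dnPI3K. Of the 7 atrial markers, 2 (Nppa and Stard10) were above background on all arrays and Sln and Bmp10 on none, and their sums were 3010 to 23493 in NTG, 3254 to 15269.5 in caPI3K and 9601 to 12279 in dnPI3K. The list did not move as one: in dnPI3K against NTG Myl4 and Myl7 fell by 5.48 and 5.19 on the log2 scale (adjusted p = 0.0400 and 0.0476), while Nppa, which made up most of the dnPI3K sum, was higher on all dnPI3K arrays (means 9612 and 4046, log2 fold change 1.48, adjusted p = 0.148). An alternative chosen after seeing the data left out the 3 arrays of highest Myl4 (NTG replicates 1 and 2 and caPI3K replicate 3). It keeps 1 NTG array, so only effect sizes are read here. Between caPI3K and dnPI3K the log2 fold changes of Cacna2d1, Kcnd3 and Kcnn1 were then 1.17, 1.74 and 1.97, against 1.16, 1.52 and 1.70 with all arrays. On the arrays kept, Myl4 still differed between these groups, at 499 and 421 in caPI3K and 27.9 to 49.7 in dnPI3K, and the part of atrial markers in these values was not tested.

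Of the 6 sodium channel genes, 3 (Scn1a, Scn3a and Scn9a) lay under the floor on every array, and the other 3 (Scn7a, Scn8a and Scn10a) were under background on all arrays. Kcnu1 was too dim to be tested. Both pacemaker genes were above background. Hcn2 read 4853, 4987 and 3690 in NTG, 3980, 3486 and 3971 in caPI3K and 3462, 4330 and 4304 in dnPI3K, and Hcn3 read 539 ± 28.6 in NTG, 539.6 ± 185 in caPI3K and 564 ± 17.6 in dnPI3K. Both overlapped between all groups. Markers of the conduction system, where this current sets the rhythm, were above background in 0 of 4 measured genes (Tbx3, Shox2, Isl1 and Bmp2). Of the 12 measured neuronal markers, 2 (Uchl1 and Stmn2) were above background on all arrays, and Snap25, Syp and Nefl were among the 9 that were so on none.

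Connexins join heart muscle cells end to end. Gja1 (connexin 43), the main connexin of ventricle, was the single one above background, at 12309 ± 1653 in NTG, 11474 ± 419 in caPI3K and 11745 ± 770.1 in dnPI3K. Its log2 fold changes were -0.094 ± 0.102 in caPI3K against NTG, -0.061 ± 0.102 in dnPI3K against NTG and -0.032 ± 0.102 in caPI3K against dnPI3K, and the 95% interval of the last was -0.26 to 0.19. Its brightest probe set is of a kind that can bind related genes, and a second one gave -0.051, -0.049 and -0.0023. Gja4 (connexin 37), a connexin of arterial endothelium, read 53.1, 62.1 and 139.6 on NTG arrays, 109, 43.4 and 41.6 on caPI3K arrays and 132, 144 and 236 on dnPI3K arrays. All were under background, and the dnPI3K arrays lay above all caPI3K arrays (-1.50 ± 0.479, adjusted p = 0.131). The endothelial list, with 6 of 8 markers above background on all arrays and Pecam1 and Tek on 8, summed to 8722 to 10443 in caPI3K, 10696 to 11188 in dnPI3K and 9746 to 11006 in NTG. The part of these cells in the values of Gja4 was not tested.

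Gja5 (connexin 40), of atria, conduction fibres and arteries, lay at 103 to 407 and overlapped between all groups. Gjc1 (connexin 45) lay at 45.8 to 226. Its dnPI3K arrays were above its NTG arrays (1.07 ± 0.545, adjusted p = 0.399), and caPI3K overlapped with both. Gjb5, a connexin of skin, and Gja3, a connexin of the lens, lay lower on all dnPI3K than on all NTG arrays and did not pass, with log2 fold changes of -0.83 and -0.68. In all, 0 of the 8 connexins tested passed in any comparison.

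Of the chloride channel family, Clcn7, an exchanger of lysosomes, read 735, 768 and 723 on NTG arrays, 569, 701 and 629 on caPI3K arrays and 814, 859 and 823 on dnPI3K arrays. The 3 groups did not overlap, with caPI3K lowest and dnPI3K highest. The difference between these was -0.40 ± 0.116 (adjusted p = 0.1), and a dimmer probe set of Clcn7 pointed the other way (0.62). Clcn3 and Clcn4, exchangers of endosomes, overlapped between groups on their brightest probe sets, at 1544 ± 369.9 in NTG, 1472 ± 174 in caPI3K and 1250 ± 88.0 in dnPI3K for Clcn3 and 624 ± 129.7 in NTG, 526 ± 40.05 in caPI3K and 629.7 ± 108 in dnPI3K for Clcn4. Other probe sets of these genes passed. For Clcn4, the dimmer probe set read 434, 516 and 535 in NTG, 495, 464 and 507 in caPI3K and 781, 798 and 701 in dnPI3K, a rise of 0.62 ± 0.133 (SE) in dnPI3K against NTG (adjusted p = 0.0420) and a log2 fold change of -0.63 ± 0.133 in caPI3K against dnPI3K (adjusted p = 0.0286). The brightest Clcn4 probe set gave 0.019 and -0.25 in these comparisons. For Clcn3, a dimmer probe set read 327, 391 and 423 in caPI3K and 159, 216 and 207 in dnPI3K (0.98 ± 0.215, adjusted p = 0.0347), where the brightest gave 0.23 and the remaining Clcn3 probe sets gave 0.62 and 0.30 and did not pass. With each array left out in turn, this Clcn3 call held in 3 of 9 fits, and the Clcn4 calls held in 1 of 9 against NTG and 3 of 9 in caPI3K against dnPI3K. The transcript that each probe set measures is not stated in the sources used here. Over the 26 other probe sets of members, of which 16 could be tested, 0, 1 and 2 passed in the 3 comparisons, where 0.107%, 2.22% and 3.46% of all genes did. Those shares of all genes are of the brightest probe set of each gene. The share over all dimmer probe sets was not counted, so the sets are unlike.

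The Na+/K+ pump restores the gradients that the channels run down. Its beta subunits Atp1b1 (748 ± 39.7 in NTG, 786 ± 49.3 in caPI3K and 768 ± 119 in dnPI3K) and Atp1b3 (3284 ± 706 in NTG, 3237 ± 296 in caPI3K and 3125 ± 312 in dnPI3K) overlapped between all groups, as did Atp1b2, which was under background (75.2 to 186). The 3 log2 fold changes of Atp1b1 were 0.071, 0.029 and 0.042, and those of Atp1b3 were -0.0022, -0.054 and 0.052.

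Over the 17 members above background, none passed in any comparison on its brightest probe set, while other probe sets of Clcn3 and Clcn4 did. The rule asked for a level above background on all 9 arrays. A gene that lay under background in any group could therefore not be among the 17. Cacna2d1, under background on all dnPI3K arrays, was left out in this way. The choice of the 17 thus limited in advance how far they could differ between groups. In caPI3K against NTG, 15 of the 17 were below 0, with a median of -0.088 and a range of -0.38 to 0.15, against 39 of the 68 members tested and 3737 of 7478 genes. In dnPI3K against NTG, 8 were above 0 and 9 below, between -0.33 and 0.30. In caPI3K against dnPI3K, 11 were below 0, between -0.44 and 0.26, and 4 of the 17 (23.5%, against 17.1% of all genes) had an unadjusted p under 0.05, all lower in caPI3K (Abcc9, Cacna1c, Clcn7 and Kcna5). Scaling each array to the same median moved the median of all genes by up to 0.049. The 95% intervals of the 17 brightest probe sets reached at most -0.74 and 0.79 in caPI3K against dnPI3K. Larger differences than these lay outside every interval of those probe sets. The dimmer Clcn3 probe set that passed lay beyond them, at 0.98.

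**Figure D3:**
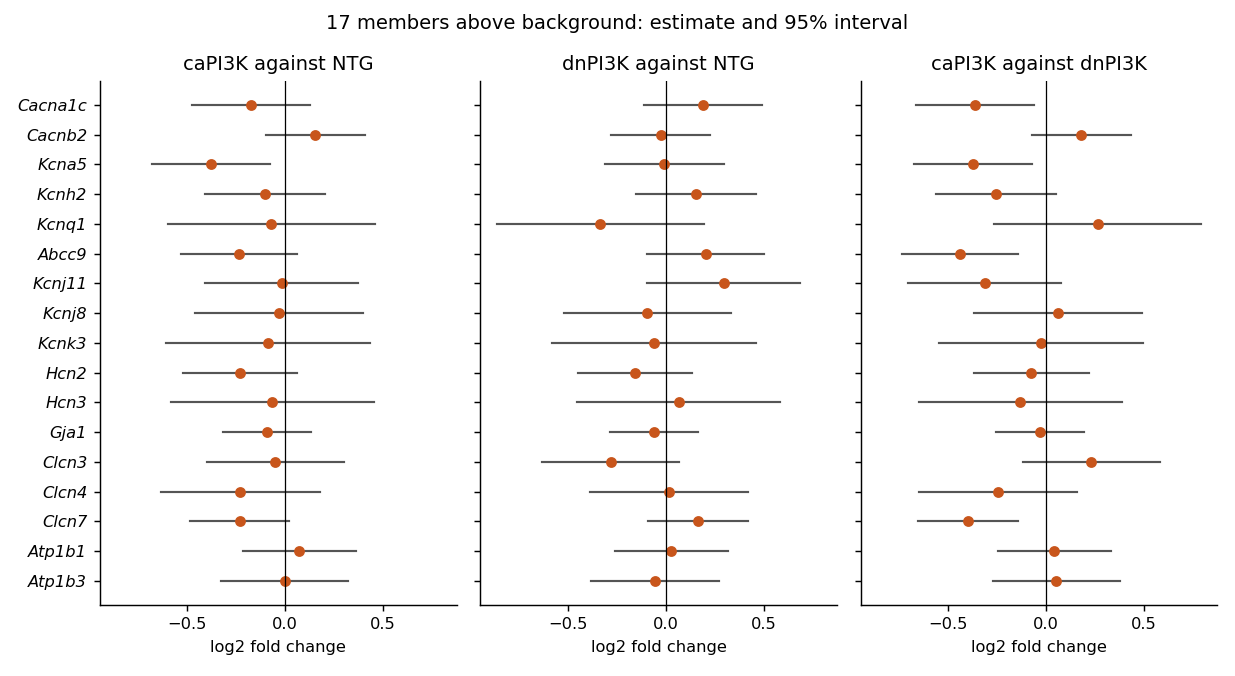
Log2 fold change (horizontal axis) of the 17 members above background in 3 comparisons: points are limma estimates and lines 95% intervals, not adjusted for the number of genes. In caPI3K against NTG, 15 of 17 points lie left of 0, and most intervals hold 0.

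Proteins that anchor, regulate or join these channels were read from a separate list of 64 measured partner genes, of which 63 were tested. In caPI3K against NTG 0 passed limma's adjusted threshold and 5 had an unadjusted p under 0.05, which is 7.94% against 7.21% of all genes. In dnPI3K against NTG 0 were higher and 5 lower, which is 7.94% of those tested against 2.22% of all genes. In caPI3K against dnPI3K 5 were higher and 2 lower, which is 11.1% against 3.46%. The list was chosen with earlier results of these data known. These shares therefore cannot show that partner genes changed more often than other genes. Akap9, the anchor that ties protein kinase A to the Kcnq1 channel, read 359.9, 288 and 375 in NTG, 282, 448 and 383 in caPI3K and 27.3, 53.1 and 14.2 in dnPI3K, where 2 of 3 arrays were under the floor, so that the size of its fall depends on the floor. Fhl2, a LIM protein that binds the Kcne1 subunit, fell by 0.57 on the log2 scale in dnPI3K (adjusted p = 0.00723), from 14010 ± 950.5 to 9399 ± 107 (mean ± SD, n = 3). N-cadherin (Cdh2), the adhesion molecule beside the connexins at the intercalated disc, fell by 0.57 (adjusted p = 0.0352). The transcription factor Mef2c and the repressor Rest fell in dnPI3K as well, with log2 fold changes of -1.23 (adjusted p = 0.00752) and -1.24 (adjusted p = 0.0394). In caPI3K against dnPI3K the channel Clic4 was higher as well (0.42, adjusted p = 0.0284), and Irx3, a factor of the conduction system, and Foxo3 were lower (-0.73, adjusted p = 0.0485, and -1.06, adjusted p = 0.0489). Ryr2, the calcium release channel, the exchanger Slc8a1 and the calcium pump Atp2a2 did not pass in any comparison. Akap9, Fhl2 and Mef2c passed in both comparisons with dnPI3K whichever single array was left out, whereas Cdh2 and Rest passed against NTG in 2 of 9 such fits each, and between caPI3K and dnPI3K Cdh2 and Irx3 did in 3 of 9, Foxo3 in 2 and Clic4 in 5. With the 3 arrays of highest Myl4 left out, 0 passed in dnPI3K against NTG, in a fit that keeps 1 NTG array, takes its spread from the other groups and called 12 of 7276 genes.

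**Figure D4:**
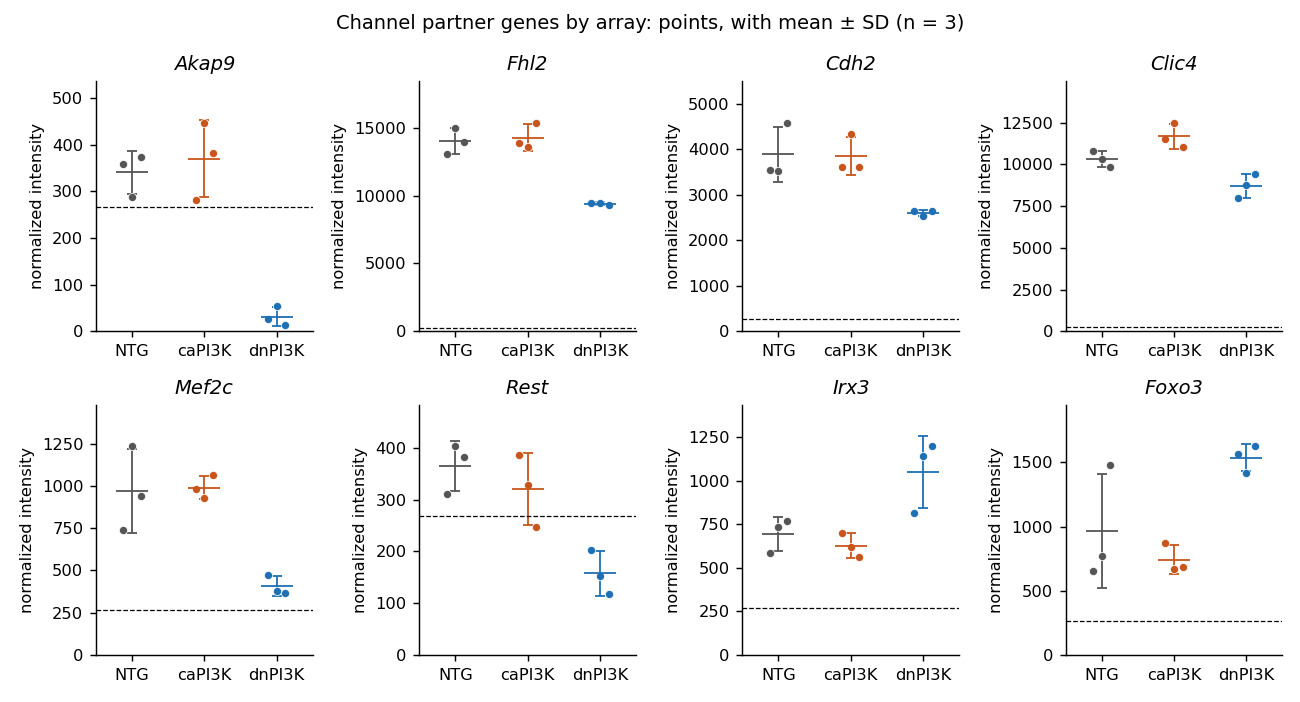
Normalized intensity (vertical axis, arbitrary units) of the 8 partner genes that passed in a comparison, on each array by group: points are animals, bars the mean ± SD (n = 3) and the dashed line is background. The dnPI3K arrays lie below all others in Akap9, Fhl2, Cdh2, Clic4, Mef2c and Rest.

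Of the 10 fast skeletal muscle markers, Myl1 and Casq1 differed between the groups. Both were lower in dnPI3K than in NTG (log2 fold changes -2.02, adjusted p = 0.00325, and -1.84, adjusted p = 0.00272) and higher in caPI3K than in dnPI3K (3.22 and 2.68). The other markers that were tested did not pass in any comparison, and Mylpf (-0.41), Tnnc2 (-0.39), Myh4 (-0.30) and Pvalb (-0.25) were below 0 in caPI3K against NTG. Of the 10, 4 were above background on all arrays (Myl1, Casq1, Pvalb and Myh4) and Tnnt3, Tnni2, Actn3 and Atp2a1 on none, and the sum was 15401 to 22216 in caPI3K, 8782 to 12302 in NTG and 3987 to 4874 in dnPI3K, an order carried by Myl1 and Casq1. Cacna2d1, which skeletal muscle also uses, had the same order of group means as these, while the skeletal pore Cacna1s was highest in dnPI3K and lowest in caPI3K. The part of this list in the values of Cacna2d1 was not tested.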

How the data were processed

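Total ventricular RNA of 9 mice was read on 9 1-colour oligonucleotide arrays, 1 mouse per array. The deposited values are one linear intensity per probe set (12488), scaled so that the mean without the outer 2% was 500.4 on each array. How probes were summarised is not stated in the sources used here. Of these probe sets 10855 had 1 gene symbol in the platform annotation, 396 had several and 1237 were not listed.

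Intensities were quantile normalized, floored at their 20th percentile (35.3) and put on a log2 scale. Array controls (66) were then left out, and 10645 probe sets above the floor on at least 3 arrays were fitted with limma 3.58.1 in R 4.3.3 (all 9 arrays, intensity trend), with Benjamini-Hochberg adjustment over all of them and a two-sided threshold of 0.05. p-values cover only the spread between these mice, and 3 arrays per group limit the precision. Animal numbers pair no mice between groups. Members and lists were chosen with earlier results of these data known. Named were members that passed, those above background, a fixed list of ventricular current genes, and per comparison and direction up to 5 members of smallest p whose arrays did not overlap. Other genes named for their values, partner genes and second probe sets among them, were chosen after these were seen. Promoters are from RefSeq. Alternatives covered normalization, floor, filter, variance moderation, array weights, samples in the fit, probe set choice, background level and each array left out.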

Additional observations from a re-analysis of the deposited data

How the results depend on the processing

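Some of the 26 alternatives changed only the background rule. Over the others, no called direction reversed among 42 named members and the 8 partner genes that passed. For the members this says little, because only Cacna2d1 passed in the main fit. Of 126 pairs of a named member and a comparison, 120 never passed and 72 kept their direction under every alternative. With each array left out in turn, members past the threshold numbered 0 to 3 in caPI3K against dnPI3K and 0 to 2 in dnPI3K against NTG. Over all genes, of which 7417 to 7428 were tested, these fits called 103 to 328 and 59 to 174. In caPI3K against dnPI3K the main fit called 259 of 7478 genes. There 2 of 45 members passed with the floor at the 40th percentile (Cacna2d1 and Kcnd2), against 311 of 5990 genes. With array weights 2 of 68 passed (Cacna2d1 and Kcnn1), against 401 of 7478 genes. With only the 2 groups compared 3 of 65 passed (Cacna2d1, Kcnd3 and Kcnn1), against 324 of 7257 genes. Without a filter on dim probe sets 0 passed in limma, against 162 of 8247 genes, and 13 of the 84 members had an unadjusted p under 0.05. The share of all genes at that p was not counted in that fit. In caPI3K against NTG 0 members passed under every alternative. Members above background numbered 48 with the floor alone as background, 37 with the median of the off-tissue genes and 7 with their maximum, against 17. Of the partner genes, 5 passed in dnPI3K against NTG, but 3 without a filter or with only the 2 groups compared, 2 without the intensity trend, 0 without the 3 arrays of highest Myl4, and 3 to 4 with an array left out. In caPI3K against dnPI3K 7 passed, but 3 without a filter, 2 without the intensity trend and 3 to 7 with an array left out. Calls over all genes in dnPI3K against NTG were 166 of 7478 in the main fit and 94 of 8247 without a filter. They were 62 of 7478 without the trend and 72 of 7276 with only the 2 groups compared. In caPI3K against dnPI3K they were 259 of 7478, 162 of 8247 without a filter and 108 of 7478 without the trend. The cause of these changes was not tested. No paired analysis was possible because animal numbers name different mice in each group; the animal number series could be set as a block only in caPI3K against NTG, where 0 members passed. Members under background have fold changes that depend on the floor.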
